A study of Mus musculus with 12 samples.

Results

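The 38 genes described here are those named as nuclear subunits of mitochondrial complex I. They are all the features, of 47730 in the deposited table of normalised counts, whose symbol is Nduf followed by a, ab, b, c, s or v and a number, with or without a further l and digit. Assembly factors (Ndufaf) do not match this pattern, nor do the processed pseudogenes Ndufa11b, Ndufb4c, Ndufs6b and Ndufab1-ps, and Ndufb1 was not analysed here. Complex I takes electrons from NADH in the mitochondrial matrix, passes them along a flavin and a chain of iron-sulfur clusters to ubiquinone, and pumps protons across the inner membrane. Its peripheral arm carries the redox centres and its membrane arm the proton channels. The catalytic core is shared between nuclear genes and mitochondrial DNA, and the other nuclear subunits are accessory proteins that surround and stabilise it. Working skeletal muscle draws much of its ATP from this chain, whereas the germ cells of the testis change their use of respiration and glycolysis as they mature.

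The genes were grouped by role into 7 core subunits, 9 accessory subunits of the peripheral arm, 9 of the proximal membrane arm and 10 of the distal membrane arm. The acyl carrier protein Ndufab1 stands alone, since it also serves mitochondrial fatty acid synthesis. Ndufa4 and Ndufa4l2 carry complex I names, but Ndufa4 is a subunit of complex IV, cytochrome c oxidase, and Ndufa4l2 is its paralog. The 2 X-linked members are Ndufa1 and Ndufb11. All 38 passed the filter on low values, a normalised count of 10 or more in at least 3 of the libraries compared, in every comparison.

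Polyadenylated RNA was sequenced from mice with a mutant allele of Bckdk, which encodes a mitochondrial kinase that inhibits the breakdown of branched-chain amino acids by phosphorylating their dehydrogenase, and from wild-type mice. The sources used here do not describe the lesion itself. The 4 groups hold 3 libraries each: muscle of BckdkM/M mice D, F and G, muscle of Bckdk+/+ mice A, B and C, testis of mice D, E and F labelled BckdkM/M, and testis of Bckdk+/+ mice A, B and C. All mice were males on C57BL/6J after 10 or more generations of backcrossing, 5 to 6 months old and fed at will, and the tissues were taken between ZT6 and ZT7. Each muscle library comes from gastrocnemius and plantaris ground together, and the letters stand for the mouse numbers in the column names, 5 of which occur in both tissues.

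A normalised count is the number of reads on a gene divided by the library's size factor, and the 12 libraries held 12852427 to 15795722 reads. No label ties the animals to separate litters or days, so p values measure the spread between these animals. Bckdk had 14.8, 14.3 and 12.4 normalised counts in BckdkM/M muscle against 2214, 2421 and 2627 in Bckdk+/+ muscle, but 138, 119 and 114 in the testis libraries labelled BckdkM/M against 68.0, 73.3 and 71.0 in Bckdk+/+ testis. The testis libraries are therefore named by their label, and NeoR, a feature of the deposited tables, had 13.1, 19.9 and 18.6 normalised counts in the testis libraries labelled BckdkM/M against 1.76, 2.50 and 3.34 in Bckdk+/+ testis. Summed counts of 7 skeletal muscle markers were 1168764 to 2219779 in muscle and 431 to 12364 in testis, and those of 7 spermatid markers 583 to 2477 in muscle and 160282 to 189269.9 in testis, so each tissue carried its own defining transcripts. Of the muscle libraries, G had the highest white fat marker sum (80493, against 7907 to 33158 in the other 5), and F and G the highest islet marker sums (32640 and 30742, against 13582 to 16042). In testis, A and B had the higher islet marker sums (19602 and 19475, against 10746 to 13941 in the other 4).

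Promoter sequences are shown for 4 members, Ndufs6 and Ndufb4 as carriers of an NRF1 motif, and Ndufa4 and Ndufa13 as the members with the highest and the lowest positive ratio of muscle over testis. NRF1 (nuclear respiratory factor) is a transcription factor with known sites in many respiratory chain genes. Each run covers the 250 bases before and the first 30 bases after the RefSeq start on GRCm38.p6, all on the minus strand and read 5′ to 3′ along the gene, and capitals mark the NRF1 motif GCGCNTGCG on either strand. The windows are chr13:73328453-73328732 for Ndufs6, chr16:37654339-37654618 for Ndufb4, chr6:11907421-11907700 for Ndufa4 and chr8:69901991-69902270 for Ndufa13.
Ndufs6: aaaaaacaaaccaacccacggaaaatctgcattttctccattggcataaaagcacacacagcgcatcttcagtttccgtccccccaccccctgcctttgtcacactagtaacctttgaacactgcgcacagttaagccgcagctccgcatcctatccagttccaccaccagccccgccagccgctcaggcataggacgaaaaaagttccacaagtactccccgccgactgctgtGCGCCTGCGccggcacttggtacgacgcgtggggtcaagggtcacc
Ndufb4: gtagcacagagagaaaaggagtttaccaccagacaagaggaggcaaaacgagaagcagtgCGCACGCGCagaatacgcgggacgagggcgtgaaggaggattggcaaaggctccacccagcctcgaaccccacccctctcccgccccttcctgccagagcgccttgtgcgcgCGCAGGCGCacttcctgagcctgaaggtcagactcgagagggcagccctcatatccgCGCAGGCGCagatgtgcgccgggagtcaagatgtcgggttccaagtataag
Ndufa4: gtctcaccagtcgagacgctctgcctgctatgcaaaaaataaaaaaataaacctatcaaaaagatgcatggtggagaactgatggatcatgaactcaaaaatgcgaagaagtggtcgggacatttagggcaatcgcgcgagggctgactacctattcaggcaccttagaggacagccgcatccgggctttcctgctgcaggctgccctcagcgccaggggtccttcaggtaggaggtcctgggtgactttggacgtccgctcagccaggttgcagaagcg
Ndufa13: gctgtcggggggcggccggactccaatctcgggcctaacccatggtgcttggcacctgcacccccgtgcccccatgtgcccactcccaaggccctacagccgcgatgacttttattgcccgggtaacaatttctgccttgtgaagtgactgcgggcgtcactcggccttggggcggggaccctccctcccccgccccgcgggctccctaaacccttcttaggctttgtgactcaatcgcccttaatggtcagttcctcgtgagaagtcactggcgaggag

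The motif begins at base -16 in the Ndufs6 window and at bases -190, -78 and -21 in the Ndufb4 window, counted from the start, and those of Ndufa4 and Ndufa13 hold none. RefSeq gives 35 windows of 300 bases, 50 of them after the start, for 33 of the 38 members. The NRF1 letters occurred in 10 of these 35 windows (28.6%), from Ndufa5, Ndufa6, Ndufa8, Ndufa11, Ndufa12, Ndufb4, Ndufb10, Ndufs5 and Ndufs6, and in 2074 of all 32851 windows (6.31%). The YY1 letters AAGATGGCG occurred in 5 member windows (14.3%), those of Ndufa9, Ndufc1, Ndufs4, Ndufs6 and Ndufs7, and in 1.40% of all windows. The ETS letters CCGGAAG, searched for the GABP factors, occurred in 4 member windows (11.4%), those of Ndufb6, Ndufb7, Ndufs3 and Ndufs8, against 8.86% of all windows. The letters TCAAGGTCA of the oestrogen-related receptors occurred in 0 member windows and in 0.423% of all windows. Both strands were searched, a window was counted once for each motif it holds, as that of Ndufs6 is for NRF1 and YY1, and a match describes the sequence only.

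In wild-type mice, 37 of the 38 genes were higher in muscle than in testis, and 1, Ndufa4l2, was lower. A gene was called where limma's test on log2(normalised count + 1) gave a Benjamini-Hochberg adjusted p below 0.05 over all features tested, and every log2 difference below is on that scale unless another is named. Of all 19994 features tested, 37.3% were called higher in muscle and 50.6% lower. The median member differed by 2.45 on the log2 scale, a median fold of 5.48 in normalised count, against -0.48 for all features tested. In each of the 38 genes the 3 muscle libraries lay wholly on 1 side of the 3 testis libraries, as they did for 38.1% of features in the higher and 51.3% in the lower direction. Bulk tissue cannot tell fewer cells of a type apart from less RNA per cell, so these are ratios of whole tissues.

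Among the core subunits, Ndufs7, which lines the ubiquinone site, had the highest log2 ratio of muscle over testis. Ndufs7 (chr10:80249121-80256794) had 4278, 5013 and 6299.8 normalised counts in muscle against 303, 211 and 253 in testis, a log2 ratio of 4.34 (SE 0.17, limma adjusted p = 6.71e-08). At the other end of the core, Ndufv2, a carrier of an iron-sulfur cluster beside the NADH site, had 4011, 3960.3 and 4968 in muscle against 1801, 1726 and 1732 in testis, a log2 ratio of 1.29 (SE 0.10). Its partner Ndufv1, which binds NADH and the flavin, had a log2 ratio of 2.17 (SE 0.079). Between Ndufs7 and Ndufv2 also lay the log2 ratios of 2.29 for Ndufs1, 2.39 for Ndufs3 and 3.08 for Ndufs8, and the core median was 2.39.

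The accessory subunits of the peripheral arm had the lowest median log2 ratio of the role groups with more than 2 genes, 1.95, with Ndufv3 highest at 3.01 and Ndufa7 lowest. Ndufa7 had 1295, 1336 and 1864 normalised counts in muscle against 687, 597 and 578 in testis, a fold of 2.39. Ndufa12, an accessory subunit that replaces an assembly factor late in assembly, had 3170.1, 3260.2 and 4181 in muscle against 1154, 1114 and 1150.0 in testis, a log2 ratio of 1.62 (SE 0.11). Both were called, with the muscle counts of every library above every testis count. Ndufs4, whose loss in mice causes an encephalopathy, had a log2 ratio of 1.92 (SE 0.15) and Ndufa9, a nucleotide-binding subunit of the dehydrogenase family, one of 1.68 (SE 0.081). The other 4 genes of the group, Ndufa2, Ndufa5, Ndufa6 and the zinc-binding Ndufs6, had ratios of 1.95 to 2.40.

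The membrane arm accessories had medians of 3.09 for the proximal part and 2.95 for the distal part. Both X-linked members belong here. Ndufa1 had 980.1, 1187 and 1597 in muscle against 110.3, 106 and 112 in testis (log2 ratio 3.48, SE 0.17). Ndufb11 had 3905, 4202 and 5811 in muscle against 141, 151 and 150.3 in testis (log2 ratio 4.94, SE 0.14), the second highest ratio of the 38. Over all tested features the medians were -0.55 on the X chromosome and -0.47 on the autosomes. The other 9 distal genes had log2 ratios from 1.97 in Ndufb5 to 3.31 in Ndufb9, a subunit of the LYR family. In the proximal arm Ndufa3, a small membrane subunit, followed Ndufa1 with 1829, 1961 and 2875 in muscle against 237, 225 and 195 in testis and a log2 ratio of 3.31 (SE 0.17).

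Ndufa13, also known as GRIM-19, had the smallest positive ratio of all, with 3275, 3529.7 and 4750.2 in muscle against 2204, 1909 and 1932 in testis (log2 ratio 0.92, SE 0.14, limma adjusted p = 0.000312). Its testis value is uncertain, because 375 of its 1251 annotated exonic bases, chr8:69902184-69902558, are also exon of Tssk6, a kinase gene of the testis on the opposite strand. Tssk6 had 27.3, 29.2 and 52.6 normalised counts in wild-type muscle against 3479, 3096 and 3087 in wild-type testis, and how strand entered the counting is not given in the sources used here. The printed Ndufa13 window runs into that shared stretch. In all, 17 of the 38 members share exonic bases with another annotated gene, 6 of them over more than 10% of their exonic bases. Besides Ndufa13, these are Ndufb6 (39.0%, Smim27), Ndufb11 (12.9%, Rbm10), Ndufb5 (12.3%, Mrpl47) and Ndufa2 (11.5%, Tmco6), overlapped on the opposite strand. The last is Ndufb9 (19.5%, Gm49356, same strand). How reads in these shared stretches were counted is not given either.

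The Ndufa4 pair split. Ndufa4 had 6139.9, 6497 and 8851 normalised counts in muscle against 158, 121 and 187 in testis, the highest ratio of the 38 at a log2 of 5.52 (SE 0.19), a fold of 45.9. Ndufa4l2 had 150.3, 182 and 189 in muscle against 259, 282 and 295 in testis, a log2 ratio of -0.68 (SE 0.13, limma adjusted p = 0.00103), and was the only member called lower in muscle. Testis library B, with the lowest Ndufa4 count, was also the testis library with the lowest sum of muscle markers, 431, against 5528 in A and 12364 in C. At the percentage of the wild-type muscle level that those sums make up, the Ndufa4 of muscle comes to 20.2 normalised counts in A, 1.58 in B and 45.3 in C. Ndufab1, the acyl carrier, had 1986, 2187 and 2572 in muscle against 274, 296 and 299 in testis and a log2 ratio of 2.95 (SE 0.11).

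**Figure D1:**
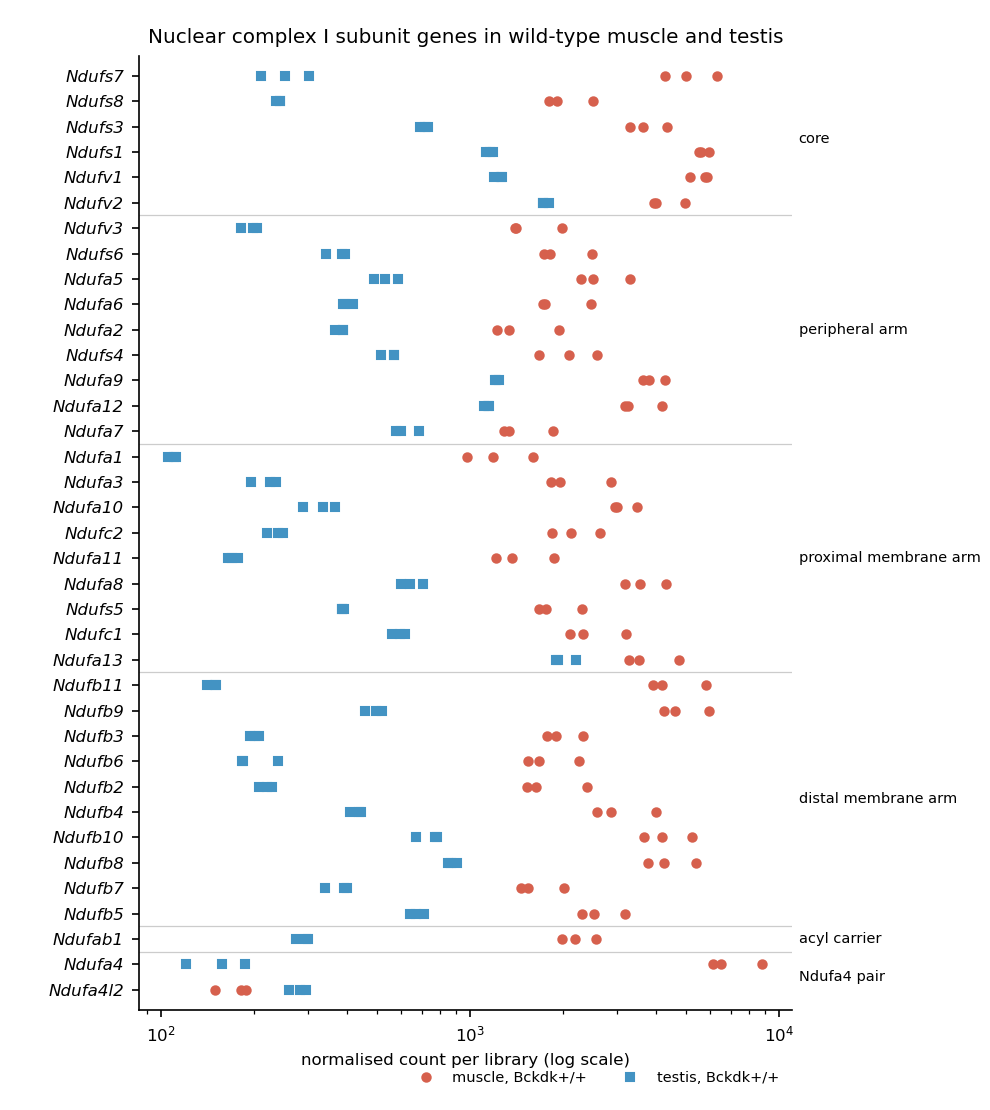
Normalised count of 37 of the 38 genes in each wild-type library, on a log axis, with genes in rows by role and by tissue ratio within a role; circles are muscle and squares testis. The muscle points lie right of the testis points in every row but Ndufa4l2, with the widest gap in Ndufa4 and the narrowest in Ndufa13.

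Per kilobase of mRNA, the order of the genes differed between the tissues. In wild-type muscle Ndufa4 led with 11742 ± 2415 normalised counts per kb (mean ± SD, n = 3 here and below). Ndufb9 (7018 ± 1249.7), Ndufs7 (6856 ± 1350.2) and Ndufb8 (6582 ± 1244) followed within each other's spread. Ndufv3 (1011 ± 210.0) and Ndufa4l2 (186 ± 22.0) were lowest. In wild-type testis Ndufa13 came first with 1611 ± 131, under the limit given above. Then came Ndufb8 with 1286 ± 43.6 and Ndufa7 with 1175 ± 109.8, whose ranges of mean ± SD overlapped. Ndufv2 (1033 ± 24.6) and Ndufa12 (1026 ± 20.1) differed by less than their spread, and Ndufa4 stood 33rd. Only Ndufb8 was among the first 5 in both tissues. Lengths are those of the shortest well supported principal transcript, and Ndufb2 and Ndufab1 also have principal transcripts of 4371 and 3479 bases, against the 455 and 1416 used.

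Other genes of the pathway were read beside them. All 7 mitochondrially encoded complex I genes were called higher in muscle, with a median log2 ratio of 4.47; mt-Nd6 had 4.48 and mt-Nd2 4.56. Of 43 nuclear subunits of complexes II to V, 40 were called higher and 1 lower, with a median of 2.75; the complex III subunit Cyc1 had 3.88 and the complex IV subunit Cox7b 5.62. Of 19 assembly factors, 14 were called higher and 4 lower, with a median of 1.58; Ndufaf4 had 3.81 and Ecsit 1.90. Of 14 regulators of mitochondrial genes, 9 were called higher and 4 lower, with a median of 0.68. Perm1, a muscle regulator of oxidative genes, had 5.08 and Esrra, an oestrogen-related receptor, 2.89. Of 7 enzymes that use NADH or ubiquinone by other routes, 3 were called higher and 3 lower; Etfdh, which feeds electrons from fatty acid oxidation into ubiquinone, had 2.52 and Sqor, sulfide quinone oxidoreductase, -2.18.

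The genes with the NRF1 letters had muscle over testis log2 ratios of 1.62 to 3.09 (median 2.40, 9 genes), and the 24 members with a window and without the letters had 0.92 to 5.52 (median 2.98). Genes with the letters thus lay inside the range of those without. TMM scaling moved the median log2 ratio of all features from -0.48 to -0.31 and that of the members to 2.62, so that the members stood 2.93 above the median of all features under either scaling. Without any 1 testis library, features detected in testis alone cannot reach the minimum of 3 libraries, and the background turned. The median of all features was then 0.17 to 0.18, with 7215 to 7268 called higher and 6265 to 6326 called lower in muscle, and the members stood 2.26 to 2.30 above it.

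In muscle, 0 of the 38 genes were called between BckdkM/M and Bckdk+/+ mice, where 0.0369% of 16246 features were called. By limma 0 of the 38 had an unadjusted p below 0.05, against 9.52% of features. DESeq2 gave 0 calls and 4 such p values, against 1333 of 16246 features with such a p. By edgeR the members had 0 of both, against 1418 features with such a p. In none of the 38 did the 3 mutant libraries lie apart from the 3 wild-type libraries, against 5.11% of features that lay apart higher and 8.85% lower. The mean was higher in BckdkM/M muscle for 33 of the 38, against 44.5% of features, with a median log2 change of 0.14 for the members and -0.040 for all features. The smallest limma adjusted p was 0.547. With 3 libraries against 3, an exact permutation test of 1 gene cannot go below p = 0.1.

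The median log2 difference of the 38 genes from the wild-type mean was 0.12, 0.078 and 0.23 in BckdkM/M mice D, F and G and -0.20, -0.089 and 0.29 in Bckdk+/+ mice A, B and C, so the mutant medians lay within the wild-type range. Wild-type C had 37 of the 38 genes above the wild-type mean and wild-type A had 0. The share of all reads on the 38 genes was 0.744, 0.779 and 0.895% in the BckdkM/M libraries and 0.639, 0.671 and 0.755% in the Bckdk+/+ libraries, with F and G above every wild type and D within their range. Without wild-type A the members' median log2 change was 0.041, with 23 of 38 higher, beside 6848 of 15994 features. Without wild-type C it was 0.29, with 35 higher, beside 7461 of 15992 features. In that fit 16 members had an unadjusted limma p below 0.05, all higher, beside 711 features in the higher direction.

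**Figure D2:**
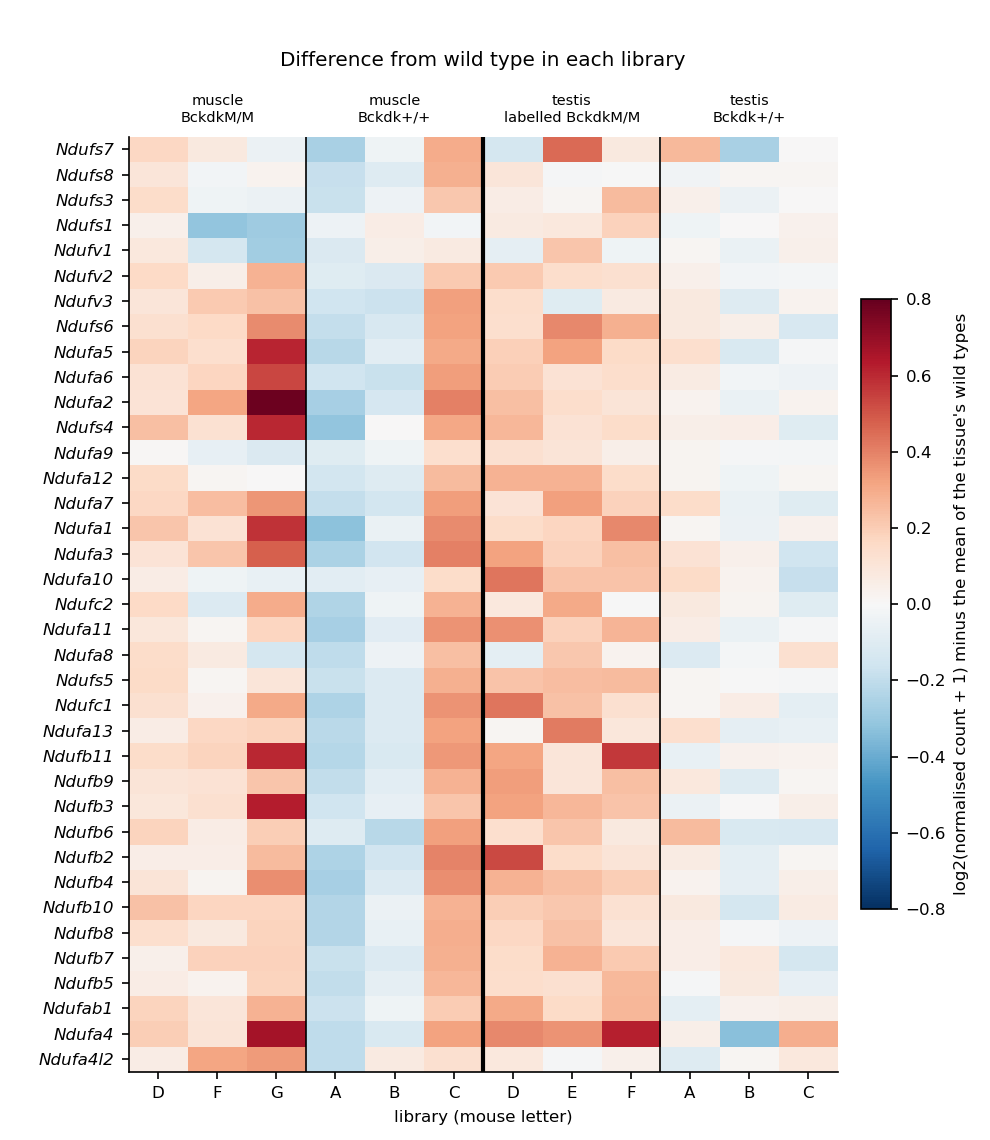
Difference of log2(normalised count + 1) from the mean of the tissue's 3 wild-type libraries, for 37 of the 38 genes (rows, by role) in each of the 12 libraries (columns, by mouse letter); red is higher and blue lower. In muscle the column of wild-type C is red for 36 of the 37 and that of wild-type A is blue for all, whereas in testis the 3 columns labelled BckdkM/M are mostly red and the 3 wild-type columns pale.

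The core subunits had the smallest median log2 change of the role groups in muscle, 0.022, with 4 of 7 means higher. Ndufs1, the largest core subunit and a carrier of several iron-sulfur clusters, had 5861, 4562 and 4676 normalised counts in BckdkM/M muscle against 5531, 5936 and 5609 in Bckdk+/+ muscle. Mutants F and G were below all wild types and D within their range, giving a log2 change of -0.19 (SE 0.15, limma adjusted p = 0.642). Ndufv1 had 5913, 5059.7 and 4603 in BckdkM/M muscle against 5159, 5763 and 5868 in Bckdk+/+ muscle, a log2 change of -0.11 (SE 0.15). In Ndufv1 D lay above G, and the groups overlapped. Of the other core genes, Ndufs3, Ndufs7 and Ndufs8 had log2 changes of 0.022, 0.067 and 0.036, and Ndufv2 of 0.16. With F and G left out for their higher islet sums, D was the only mutant library. It lay above the wild-type mean in all 38 genes, and the changes of Ndufs1 and Ndufv1 were 0.043 and 0.082.

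The peripheral arm accessories had a median log2 change of 0.25 with 8 of 9 means higher. Ndufa2, a small thioredoxin-like subunit, had 1584, 1829.5 and 2535 normalised counts in BckdkM/M muscle against 1221, 1341 and 1944 in Bckdk+/+ muscle. Its log2 change of 0.40 (SE 0.21, unadjusted p = 0.0817, limma adjusted p = 0.547) was the largest of the 38, with mutant G highest and mutants D and F below wild-type C. Ndufs4 had 2471, 2276 and 3177 in BckdkM/M muscle against 1678, 2097 and 2591 in Bckdk+/+ muscle, a log2 change of 0.32 (SE 0.18). Ndufa5 had 3013, 2927 and 4073 in BckdkM/M muscle against 2289, 2515 and 3292 in Bckdk+/+ muscle, a log2 change of 0.31 (SE 0.18). In both, G was the highest library and wild-type C stood above D and F. Without G the largest log2 change of the 38 was 0.21.

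The membrane arm accessories had medians of 0.12 (proximal, 8 of 9 higher) and 0.14 (distal, 10 of 10 higher). Ndufb11 had 5069, 5165 and 6947 in BckdkM/M muscle against 3905, 4202 and 5811 in Bckdk+/+ muscle, a log2 change of 0.31 (SE 0.19), and Ndufa1, the other X-linked member, one of 0.31 (SE 0.19). Ndufb3 had 2115, 2174 and 3071 in BckdkM/M muscle against 1781, 1897 and 2322 in Bckdk+/+ muscle, a log2 change of 0.28 (SE 0.17). In both G again stood highest, and wild-type C lay above D and F. Ndufa4 had 8117, 7590.1 and 11189 in BckdkM/M muscle against 6139.9, 6497 and 8851 in Bckdk+/+ muscle, a log2 change of 0.32 (SE 0.20). Ndufa4l2 had 180.2, 215 and 219 in BckdkM/M muscle against 150.3, 182 and 189 in Bckdk+/+ muscle, with D below wild-type B, and Ndufab1 had a log2 change of 0.18 (SE 0.14).

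The related lists gave 0 calls in muscle by limma as well, with 2 genes of complexes II to V, 1 mitochondrially encoded gene, 1 assembly factor, 0 regulators and 1 other enzyme at an unadjusted p below 0.05. Of the 43 subunits of complexes II to V, 35 had higher means, with a median log2 change of 0.18; Cox7c had 0.42 and Uqcrh 0.42, both with an adjusted p of 0.519. The mitochondrially encoded complex I genes had a median of -0.011, and mt-Nd3 had 444, 961 and 894 in BckdkM/M muscle against 278, 375 and 395 in Bckdk+/+ muscle, a log2 change of 1.07 (SE 0.27, limma adjusted p = 0.519) that DESeq2 called (adjusted p = 0.0043), as limma did without mutant D (log2 change 1.42, adjusted p = 0.00782). Of the 19 assembly factors 12 had higher means (median 0.076); Tmem186 had -0.36 and Ndufaf7 0.27. Of 14 regulators 11 had lower means (median -0.12); Tfb1m had -0.32 and Tfb2m -0.21. Of the 7 other enzymes 5 had lower means, among them Gpd2, the glycerol phosphate dehydrogenase that also reduces ubiquinone, at -0.37 (limma adjusted p = 0.519), and Nnt had 0.20.

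**Figure D3:**
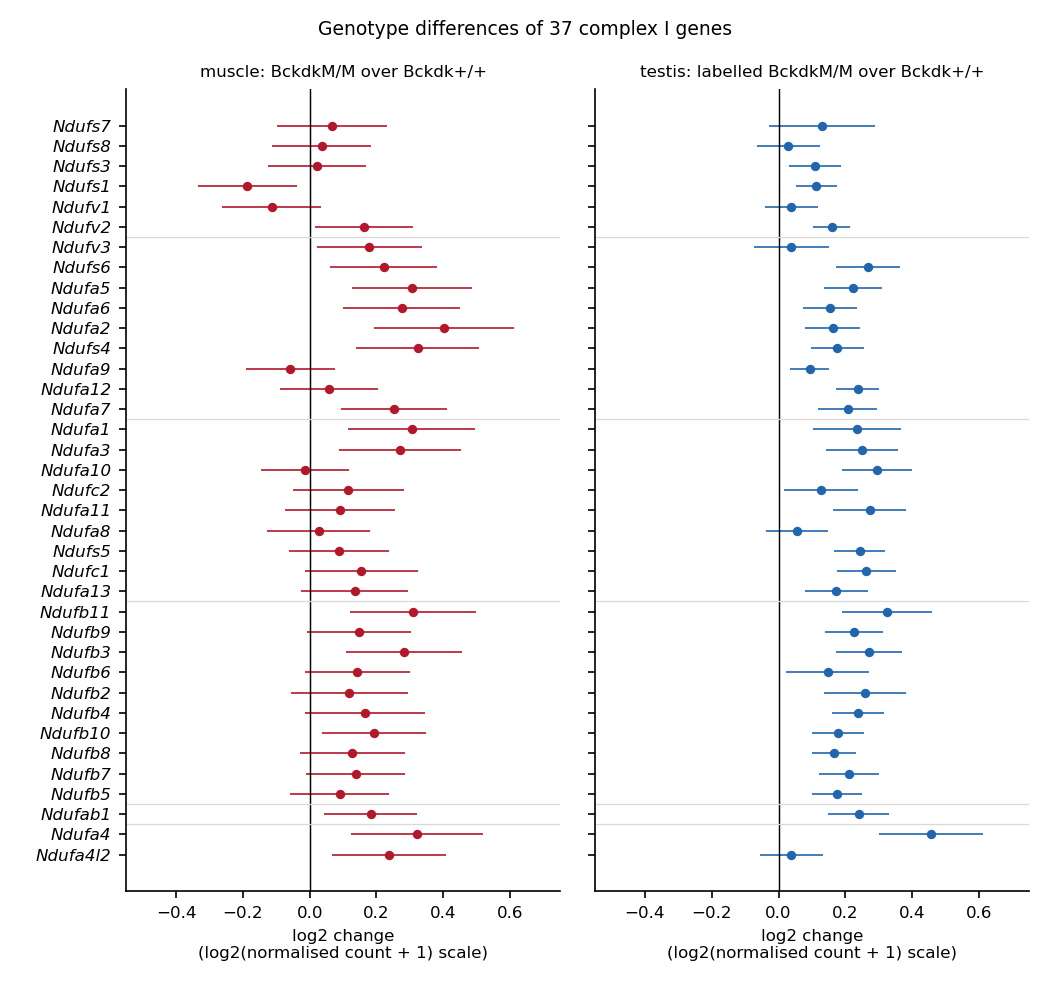
Log2 change with its standard error (bars) for 37 of the 38 genes, on the log2(normalised count + 1) scale, in muscle (left, BckdkM/M over Bckdk+/+) and in testis (right, libraries labelled BckdkM/M over Bckdk+/+). In muscle 33 of 37 points lie right of 0, in testis all 37 (all but 3 by edgeR), and 0 genes are called in either.

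Medians by mRNA length were read beside those of the members in each library. All tested coding genes with an mRNA under 1 kb had median log2 differences of 0.13, 0.11 and 0.28 in BckdkM/M muscle and -0.12, -0.11 and 0.23 in Bckdk+/+ muscle, in the same order of libraries as above. Genes of 3 kb or more had -0.018, -0.14 and -0.14 in BckdkM/M muscle and -0.0018, 0.019 and -0.013 in Bckdk+/+ muscle. The 24 members under 1 kb had medians of 0.13, 0.12 and 0.32 in BckdkM/M muscle and -0.21, -0.10 and 0.31 in Bckdk+/+ muscle. The 14 longer members had 0.088, 0.025 and 0.091 in BckdkM/M muscle and -0.15, -0.051 and 0.21 in Bckdk+/+ muscle. Coding genes of 1 kb to under 3 kb had 0.028, -0.014 and 0.028 in BckdkM/M muscle and -0.053, -0.032 and 0.093 in Bckdk+/+ muscle. In all 6 libraries the short members lay within 0.1 of the short genes at large, a margin to be read beside the members' median log2 change of 0.14. Across the 38 members, the correlation of the difference with log mRNA length was -0.26, -0.51 and -0.49 in BckdkM/M and 0.56, 0.48 and -0.70 in Bckdk+/+ libraries, as a description of genes that share a library. The summed slow and oxidative fibre markers were 14580.2, 21643 and 16797 in BckdkM/M muscle and 10639.6, 25122 and 10085 in Bckdk+/+ muscle. Most of each sum is Myh2, with 9949, 15644 and 10370 in BckdkM/M muscle against 10024, 18827 and 8654 in Bckdk+/+ muscle. Of the 8 markers, 7 had higher means in BckdkM/M muscle and none was at 0. These 7 had an unadjusted limma p below 0.05, beside 521 of 16246 features in the higher direction. The median log2 change of the 8 was 1.87, with 0 called, and the groups lay apart for 1. Myh7, the slow myosin, chosen after its values were seen, had 1159.8, 1066 and 975 in BckdkM/M muscle against 22.8, 1662 and 80.9 in Bckdk+/+ muscle. White fat marker sums were 24225, 25312 and 80493 in BckdkM/M muscle against 33158, 25199 and 7907 in Bckdk+/+ muscle. Red blood cell markers had higher means in BckdkM/M muscle for 5 of the 5 tested, with sums of 4327, 3626 and 6005 in BckdkM/M muscle and 2732, 2731 and 2871 in Bckdk+/+ muscle. G also stood apart in its brown fat marker sum (11883, against 5217 to 6776 in the other 5 muscle libraries), in its mitochondrially encoded reads (11.5%, against 7.65% to 8.21%) and in its skeletal muscle marker sum (59.7% of the wild-type mean, against 83.5% to 113%). RNA quality is recorded only as a minimum RNA quality number of 7.2 over all libraries, with no value for a single library. The part of length, RNA quality, fibre type, fat, blood and muscle content in the muscle values was not tested.

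**Figure D4:**
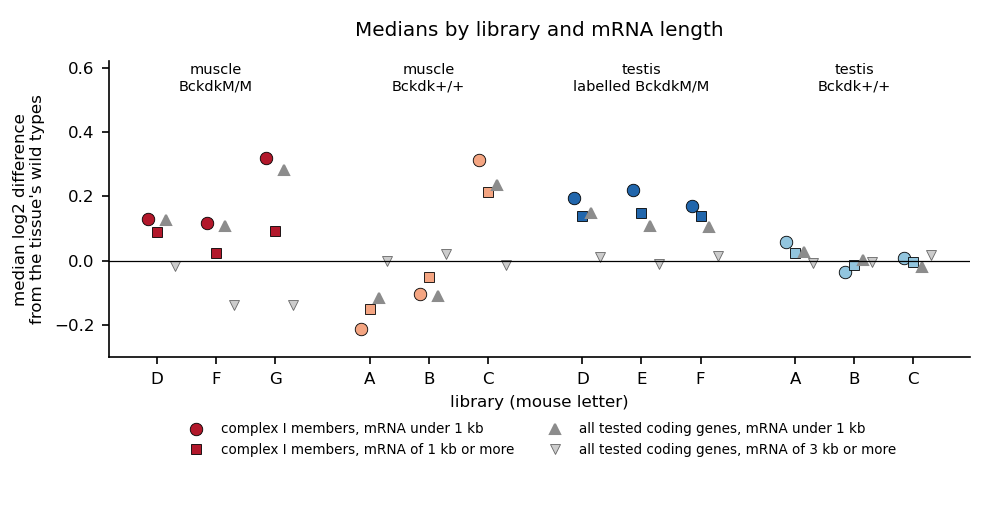
Median log2 difference from the wild-type mean of the tissue, by library (mouse letter), for members with an mRNA under 1 kb (circles) or of 1 kb or more (squares), and for all tested coding genes under 1 kb (upward triangles) or of 3 kb or more (downward triangles). Circles and upward triangles are highest in muscle libraries G and C, and in testis both are above 0 in the 3 libraries labelled BckdkM/M.

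In testis, 0 of the 38 genes were called between the libraries labelled BckdkM/M and Bckdk+/+, where 0.0205% of 19543 features were called. All 38 means were higher in the libraries labelled BckdkM/M (37 under TMM scaling, 36 by DESeq2 and 35 by edgeR), against 59.6% of features, with a median log2 change of 0.18 for the members and 0.034 for all features. An unadjusted p below 0.05 by limma, all in the higher direction, was reached by 21 of 38, against 5.57% of features. That count was 10 without wild-type B or C and 12 without D or F labelled BckdkM/M, beside 716 to 955 features with such a p in the higher direction. In 26 of 38 the 3 libraries labelled BckdkM/M lay wholly above the 3 wild-type libraries, against 9.72% of features. The genes share these libraries, and 35 of the 38 stood above the wild-type mean in each of D, E and F. The counts of members are therefore not counts of independent observations. The log2 changes ran from 0.030 in Ndufs8 to 0.46 in Ndufa4, and the smallest limma adjusted p was 0.696. The counts with an unadjusted p below 0.05 were 13 under TMM scaling, 12 by edgeR, 7 by DESeq2 and 5 with all 12 libraries in 1 model. Of all 19543 features, 615, 516, 336 and 299 had such a p in the higher direction, in the same order of fits. In each of these fits 0 of the 38 genes were called.

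The member medians were 0.18, 0.22 and 0.15 in D, E and F labelled BckdkM/M, against 0.044, -0.023 and 0.0034 in Bckdk+/+ A, B and C. The 38 genes took 0.187, 0.193 and 0.184% of reads in the libraries labelled BckdkM/M and 0.179, 0.170 and 0.172% in the Bckdk+/+ libraries, so all 3 labelled BckdkM/M lay above the wild-type range.

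The core subunits again had the smallest median log2 change of the role groups, 0.11, with 7 of 7 means higher and 1 at an unadjusted p below 0.05. That gene was Ndufv2, with 2026, 1935 and 1915 normalised counts in the libraries labelled BckdkM/M against 1801, 1726 and 1732 in Bckdk+/+ testis, a log2 change of 0.16 (SE 0.056, unadjusted p = 0.0141, limma adjusted p = 0.696). Ndufs1 had 1220.0, 1234 and 1319.7 in the libraries labelled BckdkM/M against 1132, 1164 and 1191 in Bckdk+/+ testis, a log2 change of 0.11 (SE 0.062), and its groups did not overlap either. The other 5 overlapped, with log2 changes that include 0.13 for Ndufs7, 0.11 for Ndufs3, 0.039 for Ndufv1 and 0.030 for Ndufs8. Ndufs8 had a change of -0.00034 under TMM scaling, so its direction depends on the scaling.

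Of the 9 peripheral arm accessories, 5 had an unadjusted p below 0.05 and 7 did not overlap (median 0.18). Ndufa12 had the smallest p of the 38, with 1384, 1384 and 1263 in the libraries labelled BckdkM/M against 1154, 1114 and 1150.0 in Bckdk+/+ testis, a log2 change of 0.24 (SE 0.063, unadjusted p = 0.00276, limma adjusted p = 0.696). Every library labelled BckdkM/M stood above every wild-type library for this gene. The 2 that overlapped were Ndufa7 and Ndufv3, at log2 changes of 0.21 and 0.038. Ndufs6, one of the NRF1 carriers shown, had 411, 488 and 456 in the libraries labelled BckdkM/M against 395, 387 and 342 in Bckdk+/+ testis, a log2 change of 0.27 (SE 0.095, unadjusted p = 0.0153, limma adjusted p = 0.696).

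Of the proximal membrane arm 5 of 9 had such a p and 6 did not overlap (median 0.24), the other 3 being Ndufa8, Ndufa13 and Ndufc2. Ndufs5, an intermembrane space subunit with paired cysteine motifs, had 456, 461 and 464 in the libraries labelled BckdkM/M against 393, 387 and 386 in Bckdk+/+ testis, a log2 change of 0.24 (SE 0.077, unadjusted p = 0.00801, limma adjusted p = 0.696). Ndufc1, a small single-pass membrane subunit, had 795, 693 and 644 in the libraries labelled BckdkM/M against 597, 616 and 559 in Bckdk+/+ testis, a log2 change of 0.26 (SE 0.088, unadjusted p = 0.0109, limma adjusted p = 0.696). The X-linked Ndufa1 had 121, 123 and 143 in the libraries labelled BckdkM/M against 110.3, 106 and 112 in Bckdk+/+ testis, a log2 change of 0.23 (SE 0.13). Ndufa13, whose exons overlap Tssk6, had 2034, 2684 and 2137 in the libraries labelled BckdkM/M against 2204, 1909 and 1932 in Bckdk+/+ testis, beside Tssk6 counts of 3115, 4143 and 3326 in the libraries labelled BckdkM/M against 3479, 3096 and 3087 in Bckdk+/+ testis. Library E was highest for both genes.

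Of the distal membrane arm 8 of 10 had an unadjusted p below 0.05 and 9 did not overlap (median 0.22), the exception being Ndufb6. Ndufb4, a distal subunit with 3 NRF1 motifs in its window, had 522, 508 and 494 in the libraries labelled BckdkM/M against 439, 409 and 444 in Bckdk+/+ testis, a log2 change of 0.24 (SE 0.078, unadjusted p = 0.00995, limma adjusted p = 0.696). The X-linked Ndufb11 had 184, 157 and 218 in the libraries labelled BckdkM/M against 141, 151 and 150.3 in Bckdk+/+ testis, a log2 change of 0.32 (SE 0.13), with F the highest. Ndufab1 had 357, 322 and 347 in the libraries labelled BckdkM/M against 274, 296 and 299 in Bckdk+/+ testis, a log2 change of 0.24 (SE 0.091), and the groups stood apart. Whether the role groups differ from each other in their change was not tested.

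Ndufa4 had the largest change in testis and Ndufa4l2 one of the smallest. Ndufa4 had 199.6, 196 and 236 in the libraries labelled BckdkM/M against 158, 121 and 187 in Bckdk+/+ testis, a log2 change of 0.46 (SE 0.16, unadjusted p = 0.0127, limma adjusted p = 0.696). With wild-type A and B left out for their higher islet sums, which leaves C alone, its change was 0.17. Ndufa4l2 had 294, 277 and 286 in the libraries labelled BckdkM/M against 259, 282 and 295 in Bckdk+/+ testis, overlapping, with a log2 change of 0.038 that was -0.0029 by edgeR.

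Muscle marker transcripts differed between the testis libraries. The 7 skeletal muscle markers summed to 12245, 10872 and 11459.7 in the libraries labelled BckdkM/M and 5528, 431 and 12364 in Bckdk+/+ testis, 0.0220% to 0.632% of the wild-type muscle level, with 6 of 7 means higher and none at 0. At that percentage the Ndufa4 of muscle comes to 44.8, 39.8 and 41.9 counts in the libraries labelled BckdkM/M and 20.2, 1.58 and 45.3 in Bckdk+/+ testis. Wild-type C had a marker sum above those of D, E and F. With C as the only wild-type library, 36 of the 38 means were higher in the libraries labelled BckdkM/M, as were 10466 of 18945 features, with a median log2 change of 0.21 for the members and 0.024 for all features. Leydig cell markers summed to 8861, 8063 and 6652 in the libraries labelled BckdkM/M against 6733, 6744 and 6757 in Bckdk+/+ testis, with D and E above and F below the wild types. All tested coding genes under 1 kb had medians of 0.15, 0.11 and 0.10 in the libraries labelled BckdkM/M and 0.026, 0.00084 and -0.021 in Bckdk+/+ testis. Genes of 3 kb or more had 0.012, -0.010 and 0.013 in the libraries labelled BckdkM/M and -0.0090, -0.0036 and 0.019 in Bckdk+/+ testis. The 24 members under 1 kb had 0.19, 0.22 and 0.17 in the libraries labelled BckdkM/M and 0.058, -0.035 and 0.0072 in Bckdk+/+ testis. The 14 members of 1 kb or more had 0.14, 0.15 and 0.14 in the libraries labelled BckdkM/M and 0.022, -0.015 and -0.0060 in Bckdk+/+ testis. Coding genes of 1 kb to under 3 kb had 0.052, 0.078 and 0.046 in the libraries labelled BckdkM/M. Their Bckdk+/+ testis values were 0.011, -0.0050 and 0.0022. The part of muscle transcripts, Leydig cells, length and RNA quality in the testis values was not tested.

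The related lists had 0 calls in testis by limma, with 3 mitochondrially encoded genes, 2 assembly factors, 2 regulators and 0 other enzymes at an unadjusted p below 0.05 beside those of complexes II to V. Of the 43 subunits of complexes II to V, 42 had higher means in the libraries labelled BckdkM/M, with a median log2 change of 0.15, and 14 higher and 1 lower had an unadjusted p below 0.05. The complex III subunits Uqcrq and Uqcr10 had 0.23 and 0.34, with limma adjusted p = 0.696 for both. Of the 6 mitochondrially encoded genes that could be tested 5 had higher means (median 0.12); mt-Nd6 had 0.24 and mt-Nd1 0.16. Of the 19 assembly factors 17 had higher means (median 0.10); Ndufaf1 had 0.40 and Ndufaf7 0.21. Of the 14 regulators 9 had higher means (median 0.079); Tfam, the mitochondrial transcription factor, had 0.14 and Pprc1 -0.32. Of the 7 other enzymes 4 had higher means (median 0.038), with Sqor at 0.056 and Gpd2 at 0.052.

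**Figure D5:**
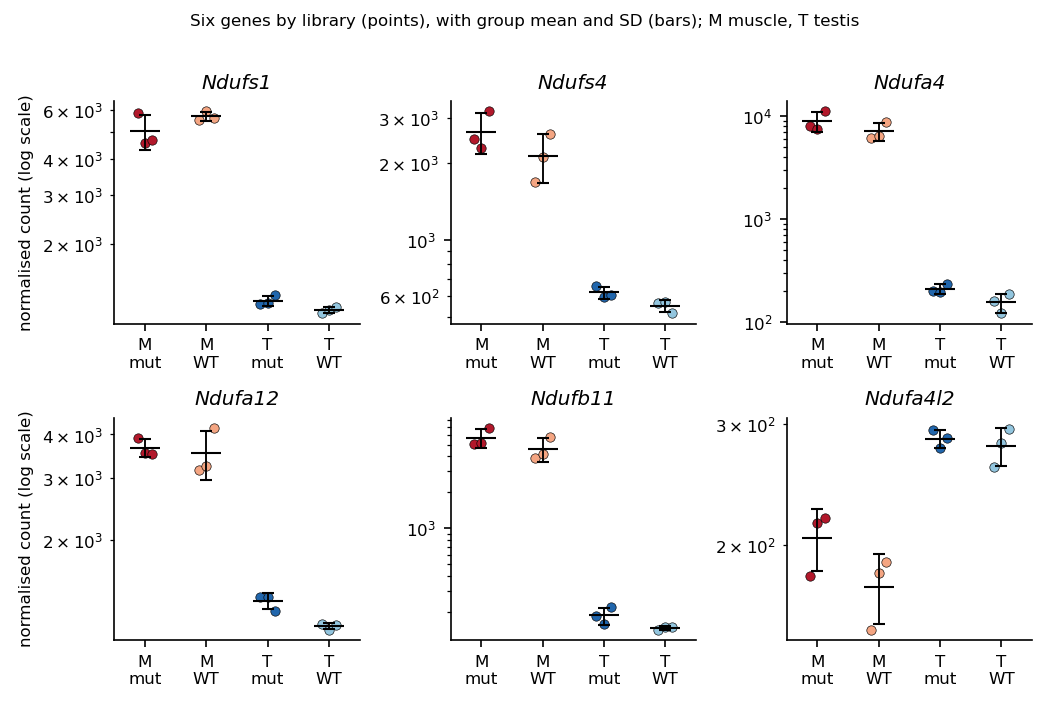
Normalised counts of Ndufs1, Ndufs4, Ndufa4, Ndufa12, Ndufb11 and Ndufa4l2 in every library (points), with the group mean and SD (bars, n = 3), on log axes. M is muscle, T testis, mut the libraries labelled BckdkM/M and WT Bckdk+/+. For Ndufa12 in testis the mutant-labelled points (1263 to 1384) lie above the wild types (1114 to 1154), whereas in muscle all 6 panels overlap.

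The genotype change in muscle minus that in testis was called for 0 of the 38 genes, where 0.0136% of 14677 features were called. By limma 0 of the 38 reached an unadjusted p below 0.05, against 8.69% of features, and edgeR and DESeq2 gave 0 calls. The difference was above 0 for 13 of the 38 (20 under TMM scaling and 21 by edgeR), against 39.2% of features, with a median of -0.042 for the members and -0.080 for all features. Ndufs1 had the smallest p, with a difference of -0.30 on the log2 scale (SE 0.14, unadjusted p = 0.0571, limma adjusted p = 0.578). It came from the change of -0.19 in muscle set against 0.11 in testis. Without muscle mutant D the difference was -0.41 and was called (limma adjusted p = 0.0464), so the call turns on that library, without which 86 features were called higher and 865 lower of 14482. Ndufa10, a membrane arm subunit related to nucleoside kinases, had -0.31 (SE 0.15, unadjusted p = 0.0655, limma adjusted p = 0.582), with -0.013 in muscle and 0.29 in testis. Ndufa9 had -0.15 (SE 0.12).

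In the related lists limma called 0 genes for this difference with all libraries, at an unadjusted p below 0.05 for 2 assembly factors, 1 mitochondrially encoded gene, 2 genes of complexes II to V, 1 regulator and 1 other enzyme, and without muscle mutant D the calls were mt-Nd3, Sdha and Gpd2 among those named here. Among the assembly factors Ndufaf1 had -0.57 and Tmem186 -0.38, and among the mitochondrially encoded genes mt-Nd3 had 1.18 and mt-Nd5 -0.35. In complexes II to V, Cox4i2 had 1.33 at counts of at most 58.2 and Sdha, the flavoprotein of complex II, -0.35. Of the regulators Tfb1m had -0.41 and Tfam -0.17, and of the other enzymes Gpd2 had -0.42 and Etfdh -0.24. The count of members above 0 moved between 4 and 30 when 1 library was left out, with 4 without wild-type muscle A and 30 without wild-type muscle C.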

How the data were processed

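Libraries of polyadenylated RNA from muscle and testis were read as paired ends of 150 bases. Tools listed by the submitters are, in no order of use, DESeq2 1.46.0, HTSeq 0.11.2, fastp 0.23.4, Picard 1.119 and HISAT2 2.1.0, with GRCm38.p4 as genome build, per the submitters' processing notes, and the handling of strand is not given in the sources used here. The deposited signal values are read counts per gene divided by 1 size factor per library, as the table is named and its values show, and the deposited log2 values are the authors' rlog table of 27384 of the 47730 features, used only as an alternative. In each library 100% of the normalised counts were whole multiples of 1 step within 0.001 read, which gave the recovered reads. Each table held 26 cells turned into dates, all in testis library D and none of a member, and these were treated as missing.

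Features with a normalised count of 10 or more in at least 3 libraries (of each tissue, for genotype by tissue) were tested with limma 3.58.1 in R 4.3.3 on log2(normalised count + 1), with trend and Benjamini-Hochberg adjustment, within each tissue, between wild-type tissues and for genotype by tissue. Alternatives were edgeR 4.0.16 (quasi-likelihood) and DESeq2 1.42.0 on recovered reads, TMM and median of ratios scaling, pseudocounts 0.5 and 8, other filters, 1 model of all libraries, a mouse block and leaving out libraries. The fits were tested on counts simulated at a fixed dispersion with true log2 changes of 1 or 2 in either direction. Changes of 1 were recovered in 97% of cases for muscle, 96% for testis, 99% for wild-type tissue and 66% for genotype by tissue. Changes as small as those of the members between genotypes were not simulated, so the simulation cannot speak to them. Positions, exons and mRNA lengths come from GENCODE M21, with the shortest principal transcript of good support as the length, and promoters from RefSeq on GRCm38.p6. Named genes were the core subunits, Ndufab1, Ndufa4, Ndufa4l2, Ndufa1 and Ndufb11, the members with the smallest p (6 in each genotype comparison, 4 for genotype by tissue) or the 5 highest and 5 lowest tissue ratios, and the 2 genes with the smallest p of each other list. One gene of the 38 is not reported here by itself and not drawn, and stays in every count and median. The members and lists were chosen with earlier results of these data known. Same mouse numbers were taken to mark 1 animal in both tissues, which no label states. Wild-type deviations under the same number correlated at -0.026, 0.0085 and 0.0053 over 14677 features. Those under different numbers correlated at -0.036 to 0.041.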

Additional observations from a re-analysis of the deposited data

Results flagged for a closer look

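The genotype change of Bckdk differed between the tissues. Its log2 change in muscle minus that in testis was -8.14 by a limma test of the difference over both tissues. Bckdk had 14.8, 14.3 and 12.4 normalised counts in BckdkM/M muscle against 2214, 2421 and 2627 in Bckdk+/+ muscle, and 138, 119 and 114 in testis libraries labelled BckdkM/M against 68.0, 73.3 and 71.0 in Bckdk+/+ testis. NeoR differed between the tissues in the same test, with a log2 difference of 3.52. It had 251, 208 and 266 normalised counts in BckdkM/M muscle against 2.28, 3.25 and 3.85 in Bckdk+/+ muscle, and 13.1, 19.9 and 18.6 in testis libraries labelled BckdkM/M against 1.76, 2.50 and 3.34 in Bckdk+/+ testis. The limma call of NeoR was lost with no filter (limma adjusted p = 0.0715) and with a mean of at least 50 (limma adjusted p = 0.0761). It was also lost without wild-type testis B (limma adjusted p = 0.0670). By edgeR the adjusted p was 0.148, and DESeq2 gave no adjusted p.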

How the results depend on the processing

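Across all alternatives run, 0 of the 38 genes were called in muscle or in testis, and 37 were called higher and 1 lower between wild-type tissues. The wild-type tissue median of the members, 2.45, was 2.62 under TMM scaling, 1.85 in the rlog values and 2.66 by edgeR. For genotype by tissue, 20 members were above 0 under TMM scaling and 21 by edgeR, against 13. In testis, 21 members had an unadjusted p below 0.05, and 10 to 18 with 1 library left out. Over all features, 1088 had such a p in the higher direction, and 716 to 1577 with 1 library left out. Leaving out 1 library moved the members' median log2 change between 0.041 (without wild-type A) and 0.29 (without wild-type C) in muscle. For genotype by tissue it moved between -0.14 and 0.11, the members above 0 between 4 and 30, and the members called lower between 0 and 1.

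Without the libraries with high islet sums, which leaves 1 mutant library in muscle and 1 wild-type library in testis, the muscle changes of Ndufs1, Ndufv1 and Tfb2m turned to 0.043, 0.082 and 0.018, that of Nnt to -0.071 and the testis change of Ndufa4l2 to -0.046. In testis, Ndufs8 turned to -0.00034 under TMM scaling, -0.0034 under median of ratios scaling, -0.0088 by edgeR and -0.0064 by DESeq2, and Ndufa4l2 to -0.0029 by edgeR and -0.00051 by DESeq2. With 1 library left out, the muscle changes ranged from -0.065 to 0.13 in Ndufs3, from -0.064 to 0.22 in Ndufs7 and from -0.057 to 0.18 in Ndufs8, and the testis changes from -0.031 to 0.27 in Ndufs7, from -0.0050 to 0.049 in Ndufs8, from -0.055 to 0.095 in Ndufv1 and from -0.012 to 0.079 in Ndufa4l2. The cause of these turns was not tested. Features called in muscle were 5 higher and 1 lower, against 23 and 13 by DESeq2, 8 and 6 with no filter, 8 and 20 with all 12 libraries in 1 model, and 89 and 408 without mutant D. In testis they were 3 higher and 1 lower, against 5 and 5 by DESeq2, and for genotype by tissue 1 and 1, against 2 and 48 by DESeq2.

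With the replicate block by mouse, 37 members were called higher and 1 lower between wild-type tissues, with a median of 2.45, and 0 were called for genotype by tissue, with a median of -0.044 and 13 above 0, so the block changed no call. No paired analysis was possible within a tissue because the mutant and wild-type libraries come from different mice, and the columns carry no number that pairs them. With 3 animals a group, a p above the threshold does not show that the groups are alike.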

Other observations

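The processed pseudogenes left out of the 38 were at 24.4 normalised counts or fewer in every library, apart from Ndufa11b in testis. Ndufa11b had 60.5, 45.6 and 32.0 normalised counts in testis libraries labelled BckdkM/M against 33.5, 43.3 and 27.6 in Bckdk+/+ testis, and 2.28, 0 and 0 in BckdkM/M muscle against 0, 0 and 0 in Bckdk+/+ muscle. Its parent Ndufa11 had 221, 194 and 206 in testis libraries labelled BckdkM/M against 178, 165 and 169.5 in Bckdk+/+ testis; how reads matching both genes were counted is not given in the sources used here.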
